A study of Mus musculus with 16 samples.

Results

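The genes described here are 10 genes by which astrocytes, the star-shaped support cells of the brain, are recognised: Fabp7, Gfap, Aqp4, Slc1a2, Slc1a3, Aldh1l1, Gja1, S100b, Glul and Apoe. They were taken by symbol from gene tables that list 20436 genes. Fabp7 leads the group because the interaction of the knockouts in its RNA, meaning that loss of both genes together did not add up from the losses of each, was known to be large. Fabp7 was thus chosen by its RNA interaction values, and its RNA values in single genotypes and its footprints per RNA, which share those RNA libraries, are given as a description without a test. The other 9 genes were chosen as known astrocyte genes.

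The study measured RNA and ribosome footprints in mouse cerebral cortex taken at postnatal day 28 to 35. There were 4 genotypes on an FVB.129P2 background that the labels write as FVB.129P2-/Pde6b+ Tyrc-ch //AntJ: wild type (WT), a single knockout of Fmr1 (Fmr1 KO), a single knockout of Cpeb1 (Cpeb1 KO), and a double knockout of both (double KO), with no other allele or treatment named. FMRP, the protein of Fmr1, and CPEB1 both bind mRNA and act on translation. Each genotype had 2 RNA-seq libraries and 2 footprint libraries, numbered 1 and 2, which makes 16 libraries, and each lysate of cortex was divided between the assays in the presence of cycloheximide and harringtonine. The labels do not say whether replicates were separate animals, so every p-value measures the spread between these libraries, which may be technical.

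Astrocytes clear glutamate from synapses, carry water and potassium, couple to each other through gap junctions, and supply lipid particles to neurons. Fabp7, also called brain lipid-binding protein, carries long-chain fatty acids inside radial glia and, in the adult brain, inside astrocytes. Its mRNA is known to be carried into the fine processes of astrocytes and to cycle with the time of day. CPEB proteins are known to bind it.

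RNA-seq libraries held 5423925 to 10246482 estimated counts and footprint libraries 16239703 to 24973757. CPM below denotes a count relative to its TMM-adjusted library size, and changes are in log2 with their standard error (SE). Fmr1 RNA averaged 100 ± 12.4 CPM (SD, n = 2) in WT and 22.1 ± 5.30 in the Fmr1 KO, and Cpeb1 RNA averaged 38.7 ± 7.33 in WT and 17.8 ± 2.63 in the Cpeb1 KO. Footprints of Fmr1 averaged 96.5 ± 1.09 CPM in WT and 7.28 ± 1.99 in the Fmr1 KO, while those of Cpeb1 averaged 34.4 ± 1.48 in WT and 7.37 ± 0.0919 in the Cpeb1 KO. All 10 astrocyte genes passed the filter on low counts in both assays, in which 13287 genes were tested for RNA and 13774 for footprints. In these bulk samples, fewer astrocytes and less RNA per astrocyte cannot be told apart.

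Fabp7 (NCBI gene 12140) lies on the forward strand of chromosome 10 in mouse build mm10, at 57784923 to 57788450. The 250 bases before its start are shown because its RNA level is the value that varied most among the 10 genes. They are chr10:57784673-57784922, forward strand, from the RefSeq promoter table of GRCm38.p6, the same build, with capitals marking matches to short motifs searched on both strands.

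Fabp7 promoter: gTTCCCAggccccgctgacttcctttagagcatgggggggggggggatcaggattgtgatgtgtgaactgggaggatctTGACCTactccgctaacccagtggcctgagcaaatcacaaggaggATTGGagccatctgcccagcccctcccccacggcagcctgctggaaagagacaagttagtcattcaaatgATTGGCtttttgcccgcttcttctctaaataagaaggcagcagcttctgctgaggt

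The capitals hold the core CCAAT in 2 places on the reverse strand, the nuclear factor I motif TTGGC overlapping the second of these, the RBPJ core TGGGAA at the far end, and AGGTCA, the core motif of REV-ERB and ROR receptors, all but TTGGC read on the reverse strand. Of 27025 promoter windows of this length, 34.5% held CCAAT, 41.9% TTGGC, 21.5% TGGGAA and 13.8% AGGTCA. The E box CACGTG, the letters TTCNNNGAA and the TATA box TATAAA were not found in this window, and 6.05%, 7.18% and 13% of windows hold them. A match is a description of letters and not of a bound site.

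Fabp7 RNA was higher in each single knockout than in WT. The mean of the double KO lay between, and its libraries overlapped those of WT. Its level was 22.9 and 20.2 CPM in the WT libraries, 62.6 and 39.6 in the Fmr1 KO, 40.7 and 36.5 in the Cpeb1 KO, and 29.2 and 22.7 in the double KO. All 4 libraries of the single knockouts lay above all 4 libraries of WT and the double KO. The group means were 21.6 ± 1.91 (SD, n = 2), 51.1 ± 16.3, 38.6 ± 3.03 and 25.9 ± 4.53 CPM in that order. The counts behind these levels ran from 112 in WT library 2 to 624 in Fmr1 KO library 1.

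**Figure D1:**
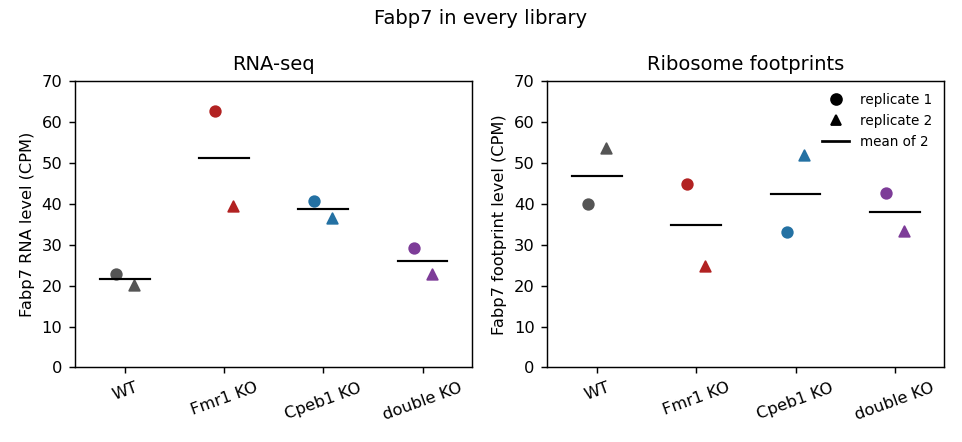
Fabp7 level in CPM (vertical axes) in each RNA-seq library (left) and each footprint library (right) of the 4 genotypes; circles are replicate 1, triangles replicate 2 and bars the mean of 2. RNA of the single knockouts sits between 36.5 and 62.6 CPM and RNA of WT and the double KO between 20.2 and 29.2, while footprints of the genotypes overlap.

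The fitted log2 change of Fabp7 RNA was 1.24 ± 0.159 (SE) in the Fmr1 KO against WT, which is 2.36-fold, and 0.85 ± 0.161 in the Cpeb1 KO, which is 1.80-fold. In the double KO it was 0.27 ± 0.166 against WT, -0.97 ± 0.156 against the Fmr1 KO and -0.58 ± 0.159 against the Cpeb1 KO. The interaction, the change upon Fmr1 loss without Cpeb1 minus that with Cpeb1, was -1.82 ± 0.224 on the log2 scale. Within replicate numbers it was -1.92 in replicate 1 and -1.64 in replicate 2. Without Fmr1 KO library 1, the highest of the 8, it was -1.57, and with a correction for gene length it was -1.5.

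Gene length is given beside this value because Fabp7 is short. Its counted feature, the coding sequence, is 396 nt in RNA-seq. Among 645 tested genes within 20% of that length, the median RNA interaction was -0.37, with the middle 80% of them from -0.77 to 0.28, against a median of -0.05 over all genes. The part of gene length in the Fabp7 value was not tested beyond the correction above.

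Averaged over both states of the other gene, a comparison that does not use the interaction, Fabp7 RNA did not pass the test. This comparison shares its libraries and its estimate of the spread with the interaction that chose Fabp7. The average effect of Fmr1 loss was 0.33 ± 0.112 (edgeR quasi-likelihood test, unadjusted p = 0.0136, adjusted p = 1.00), and that of Cpeb1 loss was -0.06 ± 0.112 (adjusted p = 1.00).

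The authors' deposited table of RNA changes, made with DESeq2 per the series' design text, gives for Fabp7 a log2 value of 0.74 in the Fmr1 KO over WT and 0.49 in the Cpeb1 KO over WT. For WT and the double KO together against both single knockouts, the authors' deposited table gives -0.65. These come from the same libraries, include the contrast that chose the gene, and are given without their p-values.

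Ribosome footprints of Fabp7 did not follow its RNA. The footprint level was 40.1 and 53.6 CPM in the WT libraries, 44.9 and 24.7 in the Fmr1 KO, 33.1 and 51.9 in the Cpeb1 KO, and 42.6 and 33.4 in the double KO. The libraries of a genotype differed from each other as much as the genotypes did, and the ranges of all 4 genotypes overlapped. The log2 change was -0.43 ± 0.255 in the Fmr1 KO against WT (edgeR adjusted p = 0.963), -0.14 ± 0.249 in the Cpeb1 KO (adjusted p = 1.00) and -0.29 ± 0.254 in the double KO (adjusted p = 0.546). The footprint interaction was 0.28 ± 0.358 (adjusted p = 0.790), against the -1.82 of RNA. It took the other sign, at -0.04, -0.19 and -0.11, without WT library 2, without Fmr1 KO library 2 and without Cpeb1 KO library 1.

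Footprints per RNA, the ratio of footprint TPM to RNA TPM in libraries of the same genotype and number, measure how many ribosomes each mRNA carries relative to other genes. The protocol divides a lysate between the assays, but the labels do not state that equal numbers mark 1 lysate, so the pairing by number is an assumption. Deviations of same-numbered RNA and footprint libraries from their group means correlated at 0.018 in WT and at 0.19 to 0.24 in the other genotypes. TPM is the authors' length-scaled unit. For Fabp7 this ratio was 1.45 and 2.22 in WT, 0.620 and 0.533 in the Fmr1 KO, 0.702 and 1.23 in the Cpeb1 KO, and 1.17 and 1.22 in the double KO. Both WT values lay above the other 6, and both Fmr1 KO values lay below all others. In the joint fit of all 16 libraries the change in translational efficiency, which is the footprint change minus the RNA change, was -1.66 ± 0.373 in the Fmr1 KO, -0.97 ± 0.375 in the Cpeb1 KO and -0.59 ± 0.386 in the double KO, on the log2 scale.

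The authors' deposited table of translational efficiency, made with Xtail per the series' design text, gives Fabp7 log2 values of -1.41 in the Fmr1 KO, -0.87 in the Cpeb1 KO and -0.46 in the double KO over WT, likewise without their p-values here.

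**Figure D2:**
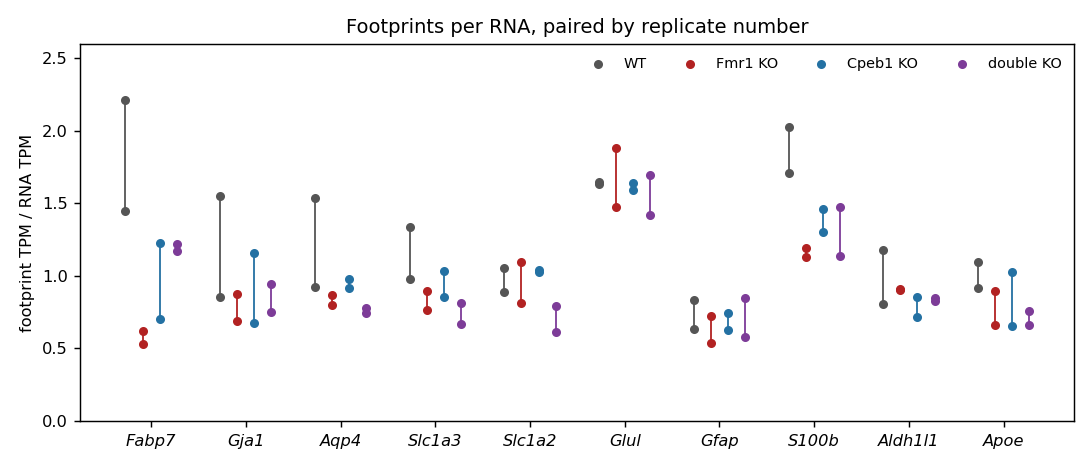
Footprint TPM divided by RNA TPM (vertical axis) for the 10 genes (horizontal axis); each point is 1 replicate number of a genotype and a line joins the 2 points of a genotype. Fabp7 shows the widest span, from 0.533 in the Fmr1 KO to 2.22 in WT, and Glul sits between 1.42 and 1.88 in all genotypes.

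Fabp7 belongs to the fatty acid-binding protein family, small carriers of fatty acids in the cytosol. Of its 10 members examined, 7 had no count in any RNA library, and Fabp3, Fabp5 and Fabp7 passed the filter. Fabp5, the epidermal type, had an RNA interaction of -0.61 ± 0.187 (edgeR adjusted p = 0.0946), and Fabp3, the heart type, one of -0.36 ± 0.179 (adjusted p = 0.259). Fabp5 RNA was 74.8 and 69.3 CPM in WT, 97.7 and 82.6 in the Fmr1 KO, 99.5 and 71.2 in the Cpeb1 KO, and 69.9 and 68.9 in the double KO. In footprints the interaction of Fabp5 was -0.06 ± 0.119 (adjusted p = 0.867).

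The level of an mRNA per length differed widely among the 10 astrocyte genes. In WT RNA the highest were Glul, at 657 ± 44.3 TPM (SD, n = 2), Apoe, at 591 ± 56.8, and Slc1a2, at 558 ± 21.1. Glul and Apoe did not differ beyond their spread, nor did Apoe and Slc1a2. Slc1a3 followed at 171 ± 16.6 TPM. Gja1 at 92.6 ± 31.0, Fabp7 at 86.5 ± 7.71, S100b at 67.2 ± 12.4 and Gfap at 62.3 ± 14.5 lay close together, and Aqp4 at 38.1 ± 4.86 and Aldh1l1 at 34.5 ± 6.19 were the lowest. In WT footprints Glul was highest at 1076 ± 79.8 TPM, and Fabp7, at 156 ± 32.6, stood near S100b at 124 ± 7.92. All 10 genes had counts in every library of the labelled cortex.

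RNA of most of these genes was higher in all 3 mutant genotypes than in WT, by amounts that did not pass the test. In the Fmr1 KO 9 of the 10 had a positive log2 change, with a median of 0.38 against 0.02 over all genes tested. In the Cpeb1 KO 8 of 10 were positive, with a median of 0.34 against 0.02, and in the double KO 10 of 10, with a median of 0.27 against -0.002. These comparisons share the WT libraries, and the 10 include Fabp7, which was chosen by its RNA interaction values. The summed RNA of the 10 genes was 2037 and 1844 CPM in WT and 2088 to 2385 CPM in the 6 other libraries, so the WT libraries were the lowest.

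With all 8 RNA-seq libraries fitted, no member passed an adjusted p of 0.05 in any RNA comparison tested, by edgeR or by DESeq2. The contrast that chose Fabp7 was not tested here for members. For WT and the double KO against both single knockouts, the authors' deposited DESeq2 results have Gja1 at -0.28 (adjusted p = 0.0105). They call 1372 of 15086 genes there, 464 of them lower. Of the 9 genes other than Fabp7, 6 had an unadjusted edgeR p under 0.05 in the Fmr1 KO against WT, all higher, where 8.09% of all genes had 1 and 0.00753% were called. In the Cpeb1 KO it was 5 of 9, all higher, against 11% of all genes, with 0% called. In the double KO it was 2 of 9, against 4.23%, with 0.00753% called. For the double KO against the Fmr1 KO and against the Cpeb1 KO it was 1 of 9 each, Gja1 in both, against 15.7% and 19.2% of all genes, with 0% and 0.00753% called. For the average effect of Fmr1 loss it was 3 of 10 (Aqp4, Fabp7 and Gfap), against 3.36% of all genes, with 0.00753% called. Fabp7, in that count, was chosen from these same RNA libraries. For the average effect of Cpeb1 loss it was 0 of 10, against 2.34%, with 0% called.

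**Figure D3:**
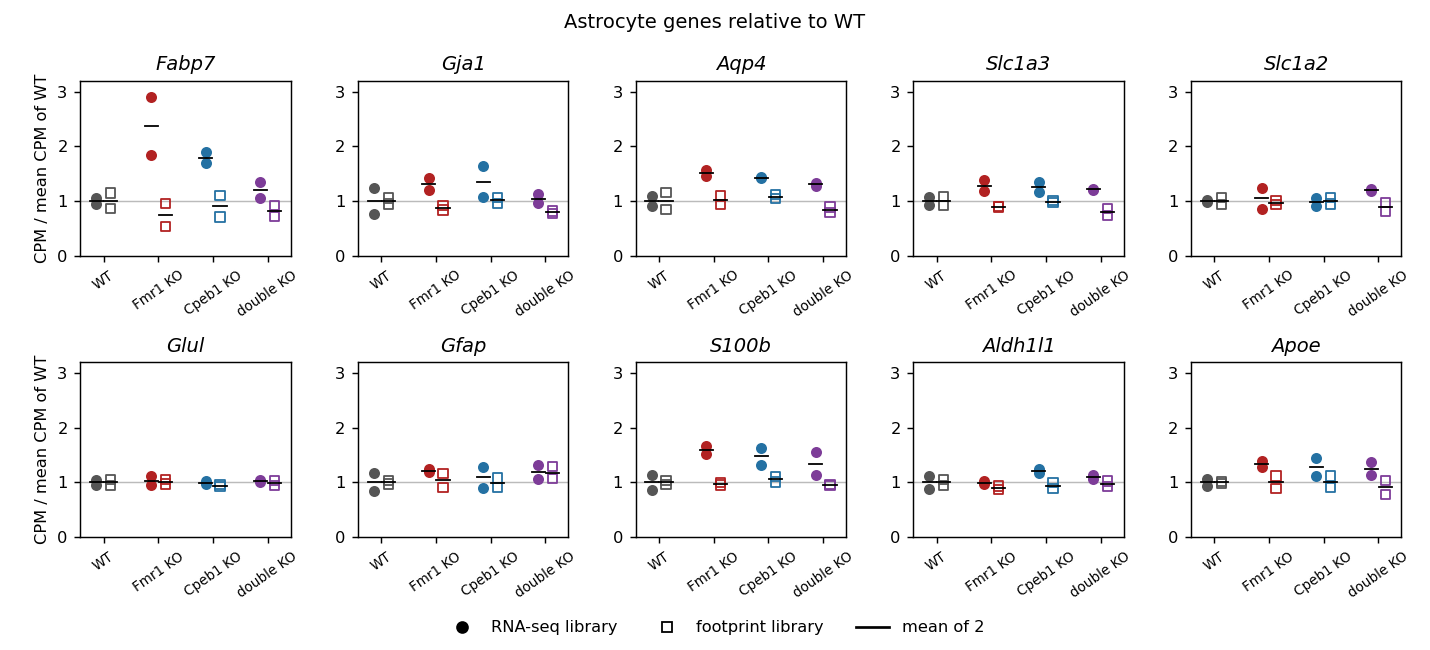
CPM of each of the 10 genes divided by its mean in WT (vertical axes) in the 4 genotypes; filled circles are RNA-seq libraries, open squares footprint libraries and bars the mean of 2. Fabp7 RNA, at 62.6 and 39.6 CPM in the Fmr1 KO against 22.9 and 20.2 in WT, stands highest, and the Gja1 and Slc1a3 footprints of the double KO lie below the WT footprints.

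Aqp4, the water channel of astrocyte end feet, was nearest to Fabp7 in its RNA. Its level was 26.8 and 22.4 CPM in WT, 38.6 and 35.7 in the Fmr1 KO, 34.8 and 35.2 in the Cpeb1 KO, and 32.7 and 31.5 in the double KO. The 4 single knockout libraries again lay above the other 4. Fabp7 and Aqp4 were the 2 of 10 members with this separation, which 12.2% of all genes showed in either direction and 6.04% with the single knockouts higher; Fabp7 was chosen on this contrast, and nothing is read from the count. The change was 0.59 ± 0.138 in the Fmr1 KO (edgeR adjusted p = 0.526) and 0.50 ± 0.139 in the Cpeb1 KO (adjusted p = 0.274), and the interaction was -0.72 ± 0.194.

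S100b, a small calcium-binding protein, had RNA levels of 9.70 and 12.6 CPM in WT, 17.1 and 18.7 in the Fmr1 KO, 18.3 and 14.7 in the Cpeb1 KO, and 12.7 and 17.3 in the double KO. The double KO libraries spanned from the level of WT to that of the single knockouts. Its change in the Fmr1 KO was 0.70 ± 0.209 (edgeR adjusted p = 0.526). Its counted feature of 276 nt is the shortest of the 10, and the 274 tested genes within 20% of it had a median interaction of -0.37 beside its -0.87 ± 0.292.

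Among the carriers and lipid genes, Apoe, the main lipid particle protein of the brain, did not pass the test, with changes of 0.42 ± 0.141 in the Fmr1 KO (edgeR adjusted p = 0.529), 0.36 ± 0.142 in the Cpeb1 KO (adjusted p = 0.409) and 0.33 ± 0.142 in the double KO (adjusted p = 0.966). Apoe RNA was 392 and 342 CPM in WT and 412 to 532 CPM in the other 6 libraries. Fitted with edgeR on the libraries of WT and the Fmr1 KO only, Aqp4, S100b and Apoe passed, with adjusted p-values of 0.0156, 0.0335 and 0.0202. The share of all genes called in that fit is not given here, and nothing is read from the count of members.

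Neither glutamate transporter passed the test in RNA. Slc1a3, the transporter GLAST, had RNA levels of 201 and 175 CPM in WT and 219 to 260 CPM in the other 6 libraries. Slc1a2, the transporter GLT-1 that takes up most glutamate in the cortex, had 664 and 630 CPM in WT, 558 and 798 in the Fmr1 KO, 591 and 677 in the Cpeb1 KO, and 789 and 767 in the double KO. Its interaction was 0.25 ± 0.2, of the opposite sign to that of Fabp7, and that of Glul, the glutamine synthetase that converts the glutamate taken up, was 0.01 ± 0.163. Glul RNA stayed between 469 and 546 CPM in all 8 libraries.

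Gja1, the gap junction protein connexin 43, had RNA levels of 87.9 and 54.3 CPM in WT, 101 and 85.4 in the Fmr1 KO, 117 and 76.0 in the Cpeb1 KO, and 79.6 and 69.0 in the double KO. Library 1 was above library 2 in every genotype, and the genotypes overlapped. Its interaction was -0.76 ± 0.204. Gfap, the astrocyte intermediate filament, had an interaction of -0.18 ± 0.196, Aldh1l1, an enzyme of folate metabolism, one of -0.12 ± 0.186, Slc1a3 one of -0.40 ± 0.180 and Apoe one of -0.45 ± 0.2. The median over the 10 genes was -0.43 against -0.05 over all genes. The 10 include Fabp7, so nothing is read from this median. Of all genes, 2.06% were called for the RNA interaction, 1.78% higher and 0.286% lower. Fabp7 was the 1 member called there, on the contrast that chose it, which is no test of it.

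The tested calls among the 10 genes were in footprints. Gja1 (NCBI gene 14609; chromosome 10, 56377300 to 56390419, forward strand) and Slc1a3 (NCBI gene 20512; chromosome 15, 8634124 to 8710807, reverse strand) are the genes concerned. Gja1 and Slc1a3 footprints were lower in the double KO than in WT and in the Cpeb1 KO. The Gja1 footprint level was 100 and 112 CPM in WT, 88.8 and 97.3 in the Fmr1 KO, 101 and 113 in the Cpeb1 KO, and 82.4 and 86.9 in the double KO. The Slc1a3 footprint level was 267 and 315 CPM in WT, 259 and 261 in the Fmr1 KO, 282 and 295 in the Cpeb1 KO, and 215 and 251 in the double KO. For both genes all 4 libraries without Fmr1 lay below all 4 with Fmr1. These were 2 of 10 members, and 6.74% of all genes separated this way in either direction, 3.19% with the libraries lacking Fmr1 lower.

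**Figure D4:**
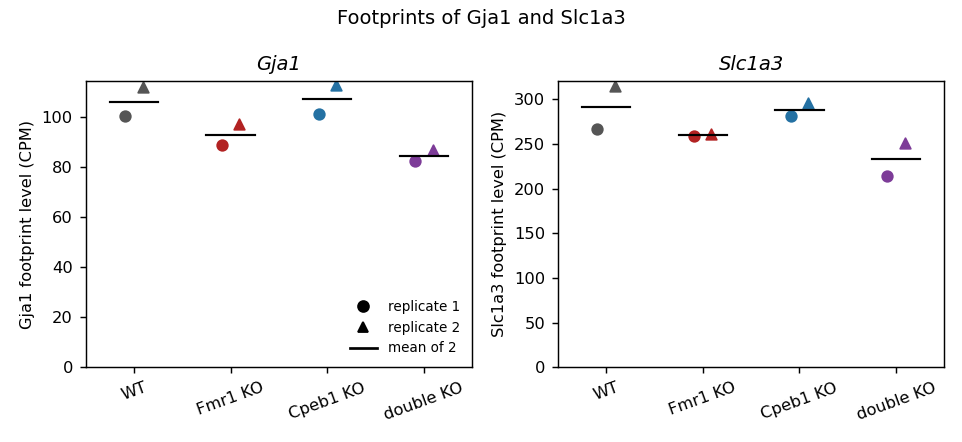
Footprint level in CPM (vertical axes) of Gja1 (left) and Slc1a3 (right) in each library of the 4 genotypes; circles are replicate 1, triangles replicate 2 and bars the mean of 2. The double KO libraries, at 82.4 and 86.9 CPM for Gja1 and 215 and 251 CPM for Slc1a3, are the lowest.

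In the double KO against WT, Gja1 footprints fell by 0.33 ± 0.078 on the log2 scale (edgeR adjusted p = 0.0476), and Slc1a3 footprints fell by 0.32 ± 0.076 (adjusted p = 0.0448). They were 2 of 10 members called, where 2.65% of all genes were called, 1.5% higher and 1.15% lower. Against the Cpeb1 KO, the double KO had changes of -0.34 ± 0.078 for Gja1 (adjusted p = 0.0292) and -0.31 ± 0.076 for Slc1a3 (adjusted p = 0.0354), again 2 of 10, where 5.6% of all genes were called, 3% higher and 2.61% lower. For the average effect of Fmr1 loss Gja1 passed, at -0.26 ± 0.055 (adjusted p = 0.0469), and Slc1a3 did not, at -0.24 ± 0.054 (adjusted p = 0.0586), so 1 of 10 members was called against 0.922% of all genes, 0.472% higher and 0.45% lower.

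These calls stand near their threshold. Without the replicate number as a block the adjusted p-values of Gja1 and Slc1a3 in the double KO against WT were 0.119 and 0.124, and neither passed in that comparison when any library other than WT library 1 was left out. The calls against the Cpeb1 KO and for the average effect of Fmr1 loss were also lost without the block, where 0 members passed, and ran from 0 to 3 members on leaving out a library. The log2 changes against WT on leaving out a library stayed between -0.35 and -0.29 for Gja1 and between -0.39 and -0.25 for Slc1a3.

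No other member was called in footprints. In the Fmr1 KO against WT 0 of 10 passed (1 with an unadjusted edgeR p under 0.05, Gja1 at -0.19 ± 0.077, and 0 by DESeq2), where 0.0581% of all genes were called, 0.029% higher and 0.029% lower. In the Cpeb1 KO against WT 0 of 10 passed, with 0 unadjusted and 0 by DESeq2, where 0.0799% were called, 0.0581% higher and 0.0218% lower. For the double KO against the Fmr1 KO the count was 0 of 10, with 1 unadjusted (Slc1a2) and 0 by DESeq2, where 0.334% were called, 0.189% higher and 0.145% lower. The average effect of Cpeb1 loss gave 0 of 10, with 0 unadjusted and 0 by DESeq2, where 0.167% were called, 0.138% higher and 0.029% lower. The footprint interaction gave 0 of 10, with 0 unadjusted and 0 by DESeq2, where 0.0653% were called, 0.029% higher and 0.0363% lower.

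Slc1a2 footprints had a change of -0.18 ± 0.065 in the double KO against WT (edgeR adjusted p = 0.138), and Aqp4 footprints one of -0.24 ± 0.140 (adjusted p = 0.358). Gfap footprints went the other way, at 0.24 ± 0.129 (adjusted p = 0.312), with 50.4 and 53.3 CPM in WT and 67.1 and 55.3 in the double KO. Glul footprints stayed between 996 and 1134 CPM in all 8 libraries, and S100b footprints between 21.5 and 25.4 CPM. Apoe footprints were 474 and 493 CPM in WT and 378 and 502 in the double KO, and those of Aldh1l1 were 79.4 and 89.6 in WT and 86.6 and 77.7 in the double KO. The median footprint change of the 10 genes was -0.04 in the Fmr1 KO, 0.0004 in the Cpeb1 KO and -0.17 in the double KO, against medians of 0.004, -0.001 and -0.001 over all genes.

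Footprints relative to RNA were lower in the mutants for most of the 10 genes, without a call. The change in translational efficiency was negative for 10 of 10 in the Fmr1 KO, with a median of -0.45, for 9 of 10 in the Cpeb1 KO, with a median of -0.34, and for 10 of 10 in the double KO, with a median of -0.48. Over all genes the medians were -0.001, -0.003 and -0.01. These comparisons share the WT libraries of both assays, and the 10 include Fabp7, which was chosen by its RNA interaction values. Of the 9 genes other than Fabp7, 0 were called in each, by edgeR or DESeq2, where 0.0212%, 0.00707% and 0.00707% of all genes were called. An unadjusted edgeR p under 0.05 was reached by 5, 2 and 6 of the 9, all lower, against 7.60%, 9.05% and 3.48% of all genes.

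Slc1a3 had the lowest of these p-values in the double KO, with a change of -0.62 ± 0.152 (edgeR unadjusted p = 0.000979, adjusted p = 0.928). Its footprint TPM per RNA TPM was 0.980 and 1.33 in WT and 0.669 and 0.813 in the double KO. S100b had a change of -0.72 ± 0.224 in the Fmr1 KO (adjusted p = 0.549), with ratios of 2.03 and 1.71 in WT and 1.2 and 1.13 in the Fmr1 KO. Glul, at 1.65 and 1.63 in WT, had changes of -0.004 ± 0.138, -0.06 ± 0.138 and -0.07 ± 0.139 in the Fmr1, Cpeb1 and double knockouts.

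In the authors' deposited table of translational efficiency, 4 of the 9 genes other than Fabp7 had an adjusted p under 0.05 for the Fmr1 KO over WT, all lower. That table calls 431 of 14563 genes, 345 higher and 86 lower. The 4 members were Slc1a3 at -0.42, Gja1 at -0.48, S100b at -0.63 and Apoe at -0.35, with adjusted p-values of 0.000818, 0.00198, 0.0330 and 0.00186. For the double KO over WT the authors' deposited table has 2 of the 9, Slc1a3 at -0.53 (adjusted p = 0.000165) and Slc1a2 at -0.39 (adjusted p = 0.0172), among 22 of 14521 genes, 11 higher and 11 lower.

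Other astrocyte genes were taken in lists by function, and their counts stand beside the shares of all genes called: in footprints 2.65% (1.15% lower) in the double KO against WT and 5.6% (2.61% lower) against the Cpeb1 KO. With lists of about 10 genes, 1 call is the least that a list with any call can show, and nothing is read from it about the list. Of 14 genes for transport and amino acid metabolism, 1 footprint call was made in the double KO against WT, a fall of Gstm1, a glutathione transferase, by 0.40 ± 0.094 (edgeR adjusted p = 0.0446). The list's median was -0.14, against -0.001 over all genes. Of 10 genes for ion channels, pumps and junctions, Atp1b2, a subunit of the sodium pump, was the 1 call there, at -0.30 ± 0.068 (adjusted p = 0.0398). The list median was -0.22. Against the Cpeb1 KO, Atp1b2 was called at -0.28 ± 0.068 (adjusted p = 0.0345).

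Of 9 genes of lipid carriage, Pla2g7, an enzyme that cleaves oxidised phospholipids, was lower in the double KO against WT, at -0.66 ± 0.095 (edgeR adjusted p = 0.00740), and was the 1 call there. Its footprint level was 74.2 and 81.0 CPM in WT, 67.2 and 64.7 in the Fmr1 KO, 72.4 and 87.7 in the Cpeb1 KO, and 47.0 and 51.2 in the double KO. The double KO libraries were the lowest. Against the Cpeb1 KO, the double KO had calls of Pla2g7, at -0.70 ± 0.095 (adjusted p = 0.00638), and of Clu, the carrier protein clusterin, at -0.35 ± 0.068 (adjusted p = 0.0191). Pla2g7 also had an average effect of Fmr1 loss of -0.47 ± 0.067 (adjusted p = 0.0115). Pla2g7 RNA was 42.2 and 38.2 CPM in WT and 40.2 and 39.4 in the double KO.

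Of 10 receptor and signalling genes, S1pr1, a sphingosine phosphate receptor, was the 1 call in footprints of the double KO against WT, at -0.49 ± 0.109 (edgeR adjusted p = 0.0385). All 10 had a negative change, with a median of -0.25. Ednrb, the endothelin B receptor, had an average effect of Fmr1 loss of -0.44 ± 0.080 (adjusted p = 0.0337). Both were also called in the double KO against the Cpeb1 KO, S1pr1 at -0.43 ± 0.109 (adjusted p = 0.0417) and Ednrb at -0.52 ± 0.113 (adjusted p = 0.0250). Among 13 reactive astrocyte genes, of which 8 were tested in footprints, Serpina3n, a protease inhibitor, was called in the double KO against the Cpeb1 KO, at -0.48 ± 0.088 (adjusted p = 0.0166), and the list's median there was 0.01.

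Of 11 astrocyte transcription factors, 3 had higher footprints in the double KO against the Cpeb1 KO, where 3% of all genes were called higher: Id3, Id4 and Hes5, which are targets of BMP and Notch signalling. The list's median was 0.24 against -0.01 over all genes. Id3 rose by 0.51 ± 0.100 against the Cpeb1 KO (edgeR adjusted p = 0.0191) and by 0.50 ± 0.100 against WT (adjusted p = 0.0274). Hes5 rose by 0.76 ± 0.157 against the Cpeb1 KO (adjusted p = 0.0227). In RNA, Sox9, the factor that sets astrocyte identity, was called for the interaction at 2.40 ± 0.415 (adjusted p = 0.0385), on levels of 8.20 and 9.20 CPM in WT, 2.91 and 5.45 in the Fmr1 KO, 5.02 and 6.05 in the Cpeb1 KO, and 15.2 and 11.3 in the double KO.

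Of 12 secreted and phagocytic genes, Sparcl1, a protein that promotes synapse formation, was called for the RNA interaction, at -0.93 ± 0.178 (edgeR adjusted p = 0.0405), the sign of Fabp7. Its RNA was 772 and 632 CPM in WT, 957 and 861 in the Fmr1 KO, 1127 and 855 in the Cpeb1 KO, and 645 and 690 in the double KO. The single knockout libraries lay above the others. Ncan, a proteoglycan, had higher footprints in the double KO against WT, at 0.31 ± 0.071 (adjusted p = 0.0429). Of 12 radial glia and progenitor genes, where Fabp7 is also expressed, Ptprz1, a receptor phosphatase, was lower in footprints of the double KO against WT, at -0.44 ± 0.092 (adjusted p = 0.0324), and Egfr against the Cpeb1 KO, at -0.43 ± 0.096 (adjusted p = 0.0268). Hes5, which is also on this list, rose against the Cpeb1 KO with the value given above. The RNA interaction of Sparcl1 and Sox9 and of every other gene was lost in the fit without the replicate block, where 0 genes were called.

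**Figure D5:**
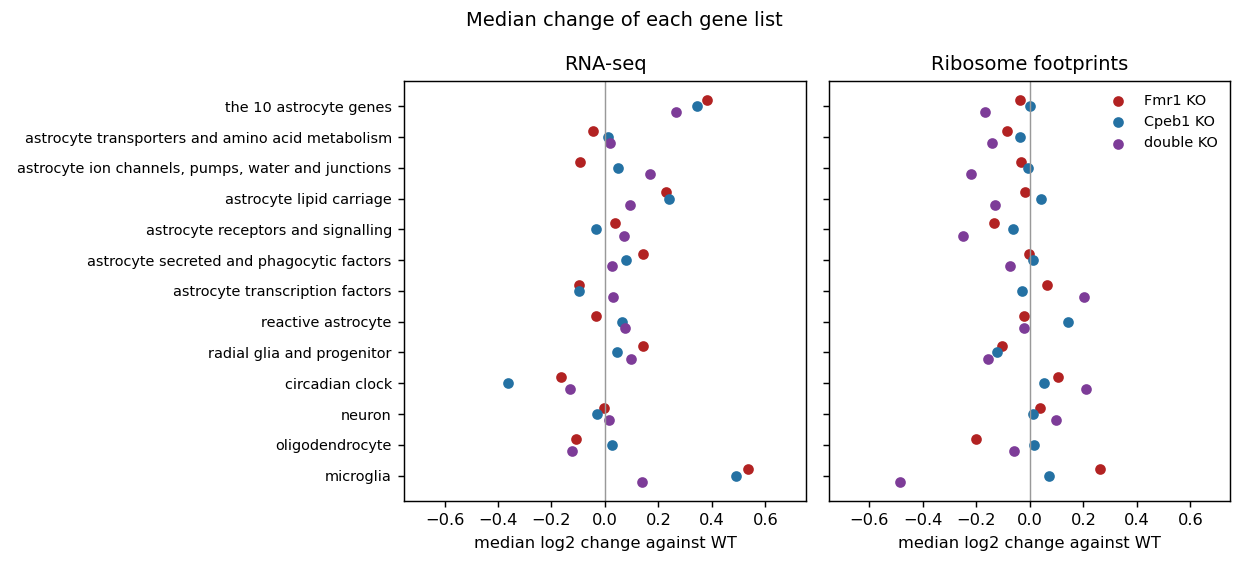
Median log2 change against WT (horizontal axes) of each gene list (vertical axis) in RNA-seq (left) and footprints (right); each point is the median over a list's tested genes in 1 mutant genotype. RNA of the 10 astrocyte genes lies at 0.38, 0.34 and 0.27 in the Fmr1, Cpeb1 and double knockouts, and their footprints at -0.04, 0.0004 and -0.17.

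Markers of other cell types varied beside these values. All 8 microglia genes had a positive RNA change in both single knockouts, with medians of 0.53 and 0.49, none of which passed (the lowest edgeR adjusted p was 0.426, for P2ry12 in the Cpeb1 KO), and their summed RNA was 30.9 and 41.7 CPM in WT, 47.8 and 52.5 in the Fmr1 KO, 64.6 and 40.3 in the Cpeb1 KO, and 35.6 and 51.1 in the double KO. In footprints of the double KO against WT, 7 of 8 were negative, and P2ry12, a purine receptor of resting microglia, was called at -0.88 ± 0.194 (edgeR adjusted p = 0.0382). The summed neuron markers, 19 genes, ran from 8189 to 9299 CPM in RNA, and Nefl, a neurofilament protein, was higher in footprints of the double KO against WT, at 0.37 ± 0.073 (adjusted p = 0.0284). Nefm, from the same list, was higher there too, at 0.34 ± 0.067 (edgeR adjusted p = 0.0262). Camk2a, also on it, had an RNA interaction of 0.89 ± 0.187 (edgeR adjusted p = 0.0416). Mog, a glycoprotein of the myelin surface made by oligodendrocytes, had an average footprint effect of Fmr1 loss of -0.36 ± 0.070 (adjusted p = 0.0412). The other genes of the neuron and oligodendrocyte lists are not given here, and nothing is read from the named genes about a cell type.

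Markers of tissue beside the cortex, and of further cell types found within it, were present at uneven levels. The summed RNA of 5 ependymal and choroid plexus genes ran from 16.7 CPM in double KO library 2 to 234 CPM in WT library 2, mostly Ttr. The summed RNA of 5 striatal genes was 235 and 159 CPM in the Cpeb1 KO and 296 to 406 CPM elsewhere, and Ppp1r1b, a phosphatase regulator of striatal neurons, had an RNA interaction of 1.27 ± 0.233 (edgeR adjusted p = 0.0405). Summed RNA of 5 cerebellar genes was 14.9 to 25.8 CPM, of 7 endothelial genes 13.8 to 17.8 CPM, of 5 oligodendrocyte precursor genes 71.5 to 108 CPM, of 9 mural and meningeal genes 70.2 to 148 CPM and of 4 blood genes 14.4 to 29.6 CPM. The part of cell makeup and dissection in the changes of Fabp7 and the other astrocyte genes was not tested.

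Clock genes are given because Fabp7 is known to cycle and the labels state no hour of collection. Of 14, 4 were called for the RNA interaction, all higher, where 2.06% of all genes were called and 1.78% higher: Bhlhe41, Dbp, Nr1d1 and Per3. Dbp, a transcription factor driven directly by the clock, had 1.46 ± 0.185 (edgeR adjusted p = 0.0376), with RNA levels of 76.4 and 70.9 CPM in WT, 45.5 and 54.1 in the Fmr1 KO, 42.6 and 50.0 in the Cpeb1 KO, and 84.1 and 85.7 in the double KO. Both single knockouts lay below WT and the double KO, the reverse of Fabp7. Nr1d1, the REV-ERB alpha receptor, had 0.93 ± 0.176 (adjusted p = 0.0405). In footprints Per1, a core clock repressor, was 1 of 3 of the 14 called with Cry2 and Tef, where 1.5% of all genes were called higher, and was higher in the double KO against WT, at 0.87 ± 0.111 (adjusted p = 0.00354). The list's median RNA interaction was 0.44, against -0.05 over all genes, and the part of the time of day in the Fabp7 values was not tested.

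The genes whose RNA ran most like that of Fabp7 over the 8 RNA-seq libraries, by Pearson's r of log2 CPM after subtracting the mean of each replicate number, were Cct5 (r = 0.995), Acadvl (0.985), Fam98b (0.972), Gnai3 (0.954) and Ccdc137 (0.953), out of 10714 genes averaging at least 50 counts. Cct5 RNA, of a chaperonin subunit, was 268 and 248 CPM in WT, 343 and 296 in the Fmr1 KO, 313 and 294 in the Cpeb1 KO, and 283 and 262 in the double KO, a smaller range than that of Fabp7. In footprints the genes most like Fabp7, of 11701, were Raver2 (0.954), Msh6 (0.950), Kif11 (0.947), Mcmbp (0.939) and Yap1 (0.934). Those points share libraries and depth, and being the top of many genes they are a description. Among the other astrocyte genes r with Fabp7 in RNA ran from -0.31 for Slc1a2 to 0.85 for Aqp4, which ranked at position 185.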

How the data were processed

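Cytoplasmic RNA and ribosome footprints of mouse cortex were sequenced in 16 libraries. The deposited expected counts and TPM values are per gene, in the format of RSEM per the file headers; the submitters' processing notes name cutadapt, Bowtie2, TopHat2, RSEM, DESeq2 and build mm10, with no versions. Of 15716 genes with 1 transcript, 99.6% have a feature length that is a multiple of 3, so counts cover coding sequence, and footprint features are 57 nt shorter. The authors deposited log2 changes and adjusted p-values from DESeq2 and Xtail, which are quoted by name; their covariates and filters are not given in the sources used here.

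Expected counts were rounded and tested with edgeR 4.0.16 in R 4.3.3: TMM scaling, filterByExpr (minimum count 10), glmQLFit and glmQLFTest, replicate number as a block, all 8 libraries of an assay, Benjamini-Hochberg adjusted p under 0.05. Common dispersions were 0.0107 for RNA and 0.00586 for footprints. Translational efficiency was the interaction of assay and genotype over 16 libraries (14137 genes). The labels state no block; it was kept from what is recalled of the study's methods. Deviations of same-numbered libraries from their group means correlated at -0.04 to 0.46 in RNA and -0.09 to 0.50 in footprints, so the numbers do not establish pairs. Replicates differed by more than counting noise (chi-square per degree of freedom 5.88 to 11.3).

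The members and gene lists were chosen with earlier results of these data known. Named genes of a list are up to 3 called genes with the lowest p in RNA or footprints, or where none was called up to 2 with the highest counts. Of the lists with no call, only Fabp3, Fabp5 and Ttr are named in the text besides members. Id4, Bhlhe41, Per3, Cry2 and Tef complete counts of 5 or fewer and were named after their values were seen. The likeness to Fabp7 used log2 CPM with a prior count of 2. Alternatives were DESeq2 1.42.0, other scaling, other filters, no block, only the genotypes compared, a length correction, and leaving out each library. The fit was tested on simulated data. Promoter letters come from the RefSeq table, which held 9 of the 10 members. A result for 1 marker gene of another cell type is not reported here.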

Additional observations from a re-analysis of the deposited data

Results flagged for a closer look

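In the RNA of 4 members, loss of 1 gene went 1 way in both replicates while the other gene was present and the opposite way in both while it was absent. This difference was not tested, since the RNA interaction chose Fabp7. The share of all genes with such a reversal was not counted, and nothing is read from the 4. A stricter pattern, both single knockouts apart from WT and the double KO in all libraries, was shown by 12.2% of all genes. Replicates were matched by number here, and the numbers do not establish pairs. For Fabp7 the log2 effect of Fmr1 loss was 1.44 and 0.96 in replicates 1 and 2 with Cpeb1 and -0.48 and -0.67 without it, a mean difference of -1.78. The effect of Cpeb1 loss on Fabp7 was 0.82 and 0.84 with Fmr1 and -1.10 and -0.79 without it. For Aqp4 the mean difference was -0.72, with an effect of Fmr1 loss of 0.52 and 0.67 against -0.09 and -0.16. For Gja1 it was -0.77, with 0.19 and 0.65 against -0.55 and -0.14. For S100b it was -0.82 and held for Cpeb1 loss, at 0.89 and 0.22 against -0.42 and -0.11. In these 2 genes the signs depend on the matching by number. Gja1 RNA was 87.9 CPM in WT library 1, above the 85.4 of Fmr1 KO library 2. S100b RNA was 17.3 CPM in double KO library 2, above the 17.1 of Fmr1 KO library 1. The feature of S100b is the shortest of the 10 and its RNA had the lowest CPM.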

How the results depend on the processing

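The Fabp7 RNA interaction of -1.82 kept its sign under every alternative run, from -2.0 to -1.5; it was -1.5 with the length correction and -2.0 to -1.57 on leaving out a library. The Fabp7 footprint interaction was -0.04 without WT replicate 2, -0.19 without Fmr1 KO replicate 2 and -0.11 without Cpeb1 KO replicate 1, within a range of -0.19 to 0.92. Leaving out WT footprint replicate 2 also turned the Aqp4 footprint change in the double KO against WT to 0.0495, in a range of -0.51 to 0.0495.

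The replicate block decided the calls: with no replicate block, 0 members were called in the RNA interaction and 0 in footprints of the double KO against WT, of the double KO against the Cpeb1 KO and of the average effect of Fmr1 loss. With only the compared genotypes 3 members were called in RNA of the Fmr1 KO against WT, and 0 in footprints of the double KO against WT. The shares of all genes called in those fits are not given here, and nothing is read from these counts. The RNA interaction called 2 members with no filter and 2 with the length correction. Every count of members for the RNA interaction has Fabp7 among the members, which that contrast chose, so these counts are a description and no test. The average footprint effect of Fmr1 loss called 2 members by DESeq2 and 2 with no filter. On leaving out a library the member counts ran from 0 to 3 in the RNA interaction, in footprints of the double KO against WT and against the Cpeb1 KO and in the average footprint effect of Fmr1 loss, and from 0 to 1 in the footprint interaction. A left-out library leaves a genotype with 1 library, assumed to vary like the others. The cause was not tested. The count of all genes called moved more than the members did: the RNA interaction called 274 genes, 0 with no block, 531 by DESeq2, 767 with no filter, 1147 with the length correction and 0 to 1360 on leaving out a library; footprints of the double KO against WT called 365 genes, and 31 to 1318 on leaving out a library; footprints of the double KO against the Cpeb1 KO called 772, and 5 to 1987; the average footprint effect of Fmr1 loss called 127, and 9 to 1165.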
